A study of Mus musculus with 10 samples.

Results

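Reference genes are transcripts taken to be at the same level in every sample, so that the level of another transcript can be expressed relative to them in RT-qPCR. The 10 described here are common choices: *Actb* (beta-actin), *Actg1*, *Tubb5*, *Gapdh*, *Hprt*, *Gusb*, *Tbp*, *Eef1a1*, *Ppia* and *Ywhaz*. They were chosen by symbol, as 10 of the 43432 genes in the count table, and all 10 were among the 14172 genes with enough counts to be tested. The question was which of them stayed level in RAW264.7 cells under lipopolysaccharide (LPS) and compound **1**. The study used beta-actin as the endogenous control for its RT-qPCR of *Nqo1* and *iNos* (*Nos2*).

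RAW264.7 is a mouse macrophage line, and **1** is a monounsaturated fatty acid isolated from a marine cyanobacterium. There were 5 conditions of 2 libraries each, namely solvent alone (DMSO), solvent followed by LPS (DMSO + LPS), and LPS after **1** at 3.2, 10 or 32 µM. Cells were given **1** or solvent (0.5% DMSO in the controls) for 1 h before LPS at 1 µg/mL, and RNA was collected after 12 h. Nothing in the labels says that the replicates came from separate cultures, so p-values measure the spread between these libraries, which may be technical.

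Total counts lay between 45966803 and 58976377 per library, and levels are given as CPM, the usual counts scaled to a common library total, here by edgeR's TMM method. The 6 macrophage markers were present in every library (*Lyz2* at 2585 CPM or more), while *Cd3e* of T cells was at 0 counts. Some libraries stood apart. In replicate 2 at 32 µM ribosomal RNA features held 4.70% of all counts, and elsewhere 0.200% to 0.424%. *Epcam*, an epithelial marker, had 451 counts in replicate 1 at 10 µM and 78 in replicate 1 at 3.2 µM, against 0 to 2 in the other libraries, and *Krt18* had 87 and 12 against 0 or 1. The 6 markers of other cell types summed to 605 and 104 counts in those libraries and to between 3 and 17 in the rest. Replicates also differed along transcript length: over 525 genes with transcripts under 1000 nt, the median log2 deviation was −0.30 in replicate 2 of DMSO, −0.20 in replicate 2 at 32 µM and 0.23 in replicate 1 at 10 µM. The part of these differences in the results was not tested, and values without each of these libraries are given where they change a call.

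The members belong to unlike parts of the cell. *Actb* and *Actg1* encode the cytoplasmic actins and *Tubb5* a beta-tubulin. *Gapdh* encodes an enzyme of glycolysis, *Hprt* an enzyme of purine salvage and *Gusb* a lysosomal glycosidase. *Tbp* encodes the TATA-binding protein of the basal transcription machinery, *Eef1a1* the translation elongation factor that brings aminoacyl-tRNA to the ribosome, *Ppia* the prolyl isomerase cyclophilin A, and *Ywhaz* a 14-3-3 adaptor protein. In macrophages, LPS is sensed by Toll-like receptor signaling and is followed by a broad change in transcription, in cell shape and in metabolism, so several of these roles are ones the stimulus is known to touch.

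Per kilobase of transcript, the members spanned a wide range of levels. *Eef1a1* had the highest mean, 5463 CPM per kb, followed by *Actb* (2933), *Gapdh* (1825), *Ppia* (1056) and *Actg1* (999.8). *Tubb5* (291), *Ywhaz* (280.4) and *Gusb* (221) formed a middle tier, and *Hprt* (96.1) and *Tbp* (12.8) were lowest. The order of *Ppia* and *Actg1*, and that of *Ywhaz* with *Tubb5* and with *Gusb*, was not the same in every library. The length was that of 1 principal GENCODE M21 transcript per gene, which leaves *Tbp* least certain because its principal transcripts differ several-fold in length. Even at the bottom of the range *Tbp* had 1165 counts or more per library, a counting error of at most 2.93%.

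Sequence is shown for the members with the largest and the smallest SD of log2 CPM over the 10 libraries under TMM scaling. The windows run from 250 bases before to 50 bases after the RefSeq start on GRCm38.p6, and capitals mark a CArG box, the site type recognized by serum response factor, a transcription factor known for its actin gene targets. *Actg1* lies at chr11:120345690-120348542 on the minus strand and *Tbp* at chr17:15499888-15528379 on the plus strand (GRCm38, GENCODE M21).
*Actg1*, chr11:120348446-120348745, minus strand: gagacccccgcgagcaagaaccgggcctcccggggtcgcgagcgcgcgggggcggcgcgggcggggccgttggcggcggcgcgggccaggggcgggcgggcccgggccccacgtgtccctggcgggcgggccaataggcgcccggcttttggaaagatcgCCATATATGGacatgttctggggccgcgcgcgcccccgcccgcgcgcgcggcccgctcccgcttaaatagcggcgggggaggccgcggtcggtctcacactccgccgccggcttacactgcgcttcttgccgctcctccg
*Tbp*, chr17:15499638-15499937, plus strand: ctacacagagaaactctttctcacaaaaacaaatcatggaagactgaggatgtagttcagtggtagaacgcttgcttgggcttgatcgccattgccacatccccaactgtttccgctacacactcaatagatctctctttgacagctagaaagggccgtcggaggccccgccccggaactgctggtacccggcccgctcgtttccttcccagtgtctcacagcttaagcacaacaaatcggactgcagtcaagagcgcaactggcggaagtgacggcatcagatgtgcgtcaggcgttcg
The *Actg1* window held a CArG box 90 bases before the start, a motif found on either strand in 1.63% of 32851 windows of the same length, and the *Tbp* window held none. The letters TATAAA, searched on both strands and present in 13.6% of the windows, were found in the *Ppia* window alone, 29 bases before the start. Windows were at hand for 8 members. *Actb* and *Ywhaz* were the others.

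LPS raised both cytoplasmic actins. *Actb* was at 3523 and 3430 CPM in DMSO and at 6763 and 6844 CPM in DMSO + LPS. With **1** it was at 6517 and 6558 CPM (3.2 µM), 6247 and 5750.0 CPM (10 µM) and 5380.0 and 5299 CPM (32 µM). No 2 conditions overlapped. DMSO + LPS libraries did not overlap those of DMSO for 76.9% of all genes. They did not overlap those at 32 µM for 50%, at 10 µM for 35.8% and at 3.2 µM for 45.9%. Shares for the other pairs of conditions, or for a full order, were not computed. The *Actb* levels ran from DMSO + LPS down through the rising doses to 32 µM, with DMSO lowest. The difference between DMSO + LPS and DMSO was 1.96-fold (log2 0.97, 95% interval 0.87 to 1.07, edgeR's quasi-likelihood adjusted p = 5.12e-07).

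*Actg1*, whose coding sequence is identical to that of *Actb* at 1000 of 1128 positions (88.7%), moved further. It was at 839.1 and 797.8 CPM in DMSO and at 2355 and 2397 CPM in DMSO + LPS. The libraries with **1** lay in between, at 2201 and 2304 CPM (3.2 µM), 1650.0 and 2050.0 CPM (10 µM) and 1779 and 1892 CPM (32 µM). The 10 µM and 32 µM libraries overlapped, while all were above DMSO. The rise with LPS was 2.90-fold (log2 1.54, 95% interval 1.32 to 1.76, edgeR's quasi-likelihood adjusted p = 3.83e-06). The ratio of *Actb* to *Actg1* in DMSO + LPS was 0.674 of that in DMSO.

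**Figure D1:**
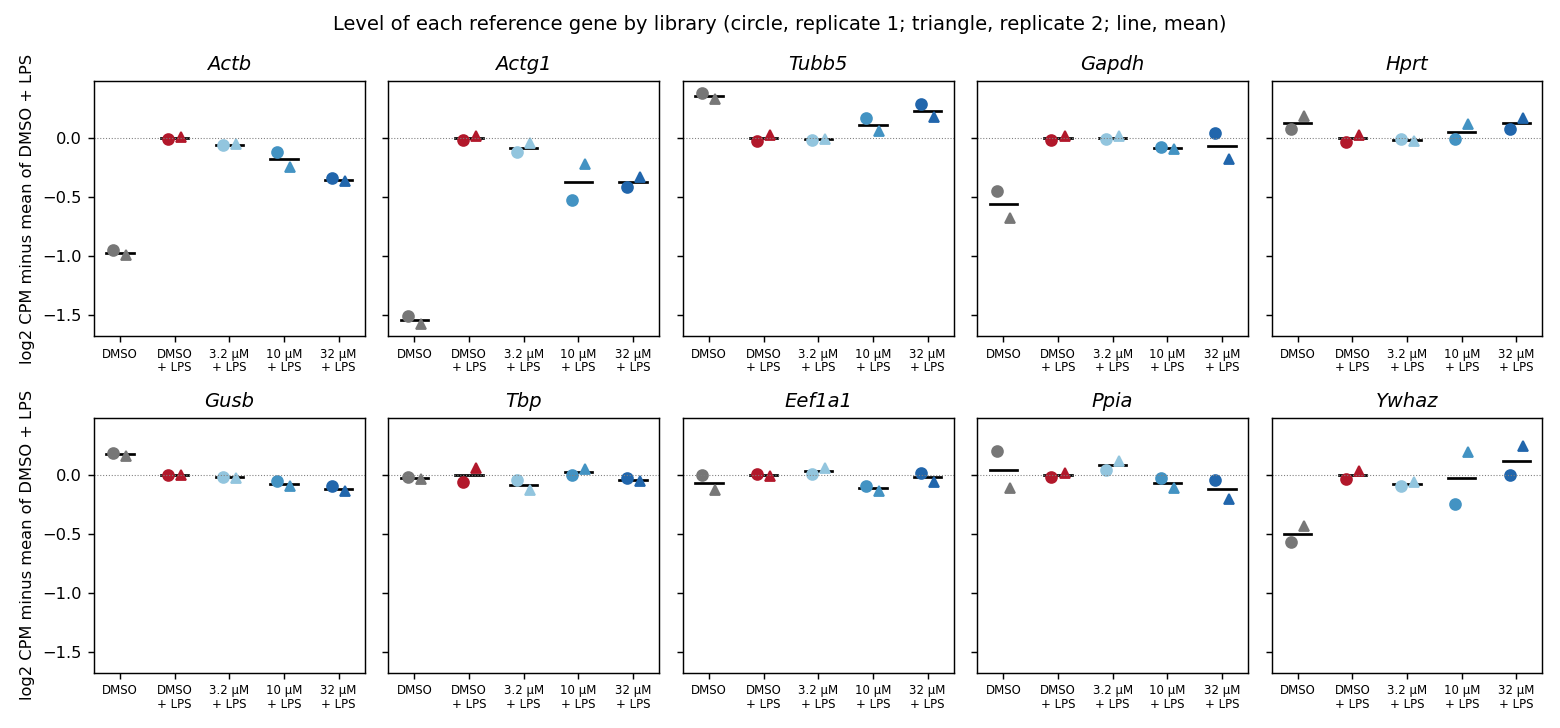
log2 CPM of each of the 10 reference genes in each library (vertical axis, minus the mean of DMSO + LPS; horizontal axis, condition; circle, replicate 1; triangle, replicate 2; line, mean of 2). *Actb* and *Actg1* sit 0.97 and 1.54 lower in DMSO, while the *Tbp* and *Eef1a1* points stay near 0 in all conditions.

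LPS changed 6 of the 10 members at an adjusted p below 0.05 over all genes tested, 4 upward and 2 downward. Over all 14172 genes the same rule called 50.9%, a share near that of the members. With a 1.5-fold change required as well, 2 members (*Actb* and *Actg1*) and 28.2% of all genes were called. When the 5 conditions were tested together, the same 6 members differed, against 48.5% of all genes. In that test *Ywhaz* was not called without either replicate of DMSO (edgeR's quasi-likelihood adjusted p = 0.247 and 0.161), of DMSO + LPS (0.0880 and 0.0925) or at 3.2 µM (0.0892 and 0.0897), or without replicate 2 at 32 µM (0.0764). *Eef1a1* was called without replicate 1 of DMSO. With the deviation of short transcripts added to the model, a choice made after seeing the data, *Eef1a1* (edgeR's quasi-likelihood adjusted p = 5.36e-04) and *Ppia* (0.00861) were called in the joint test. Its results under other scalings are given below.

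Beyond the actins, LPS raised *Gapdh* and *Ywhaz*. *Gapdh* was at 1857 and 1585 CPM in DMSO and at 2511 and 2552 CPM in DMSO + LPS, 1.47-fold higher (log2 0.56, 95% interval 0.36 to 0.76, edgeR's quasi-likelihood adjusted p = 8.90e-04). *Ywhaz* was at 455.5 and 501.9 CPM in DMSO and at 661.7 and 690.7 CPM in DMSO + LPS, 1.41-fold higher (log2 0.50, 95% interval 0.18 to 0.82, edgeR's quasi-likelihood adjusted p = 0.0167). Neither gene's DMSO and DMSO + LPS libraries overlapped. The *Ywhaz* call was lost in edgeR's quasi-likelihood test without replicate 1 of DMSO (adjusted p = 0.0972), replicate 1 of DMSO + LPS (0.0589) or replicate 2 of DMSO + LPS (0.0878), and the *Gapdh* call was kept without any 1 library.

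*Tubb5* and *Gusb* fell. *Tubb5* was at 909.9 and 878 CPM in DMSO and at 684.5 and 709 CPM in DMSO + LPS, a log2 change of −0.36 (95% interval −0.49 to −0.23, edgeR's quasi-likelihood adjusted p = 8.91e-04). *Gusb* was at 679 and 667 CPM in DMSO and at 596.9 and 596.8 CPM in DMSO + LPS, a log2 change of −0.17 (95% interval −0.26 to −0.084, edgeR's quasi-likelihood adjusted p = 0.00605). For both, each DMSO library was above each DMSO + LPS library. *Gusb* was no longer called by edgeR's likelihood ratio test (adjusted p = 0.0968) or by the quasi-likelihood test on the 4 libraries compared (adjusted p = 0.0534).

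The other 4 members were not called for LPS by edgeR's quasi-likelihood test with TMM scaling and no block. *Hprt* was at 125 and 134.9 CPM in DMSO and at 116 and 121 CPM in DMSO + LPS, a log2 difference of −0.13 (95% interval −0.28 to 0.011, edgeR's quasi-likelihood adjusted p = 0.112). With the replicate number as a block, edgeR's quasi-likelihood adjusted p for *Hprt* was 0.0463 at a log2 difference of −0.13. Nothing in the labels says that equal numbers belong together, and with those of DMSO + LPS exchanged *Hprt* was not called. *Ppia* was at 1428 and 1150.0 CPM in DMSO and at 1230.0 and 1257 CPM in DMSO + LPS. The DMSO libraries of *Ppia* lay on both sides of the DMSO + LPS libraries, and the log2 difference was −0.052 with an interval from −0.28 to 0.18. With the deviation of short transcripts added to the model, a choice made after seeing the data, *Ppia* was at −0.13 and called (edgeR's quasi-likelihood adjusted p = 0.0441).

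*Tbp* and *Eef1a1* had the smallest SDs of log2 CPM over the 10 libraries under TMM scaling. *Tbp* was at 26.5 and 26.2 CPM (DMSO), 25.8 and 27.9 CPM (DMSO + LPS), 26.0 and 24.5 CPM (3.2 µM), 26.8 and 27.8 CPM (10 µM), and 26.3 and 25.8 CPM (32 µM). *Eef1a1* was at 10020 and 9171 CPM (DMSO), 10100 and 9963 CPM (DMSO + LPS), 10120 and 10420 CPM (3.2 µM), 9397 and 9059 CPM (10 µM), and 10150 and 9597 CPM (32 µM). The DMSO and DMSO + LPS libraries overlapped for both genes. The log2 difference with LPS was 0.025 for *Tbp* (95% interval −0.11 to 0.16) and 0.064 for *Eef1a1* (95% interval −0.048 to 0.18).

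A missed threshold does not show that a gene is level, so each 95% interval was set against a bound of 1.2-fold (log2 0.263). For LPS, *Tbp* and *Eef1a1* lay within it, 2 of 10 members against 9.2% of all genes. At 3.2, 10 and 32 µM the interval was within the bound for 7, 5 and 4 members, against 37.7%, 32.1% and 25.1% of all genes. *Tbp* and *Eef1a1* were within it in all 4 comparisons, as were 5.5% of the genes tested and 12.9% of the 4371 genes with a mean of at least 50 CPM. All these intervals are under TMM scaling, and those of other scalings were not set against the bound. Under library size alone the log2 change with LPS was −0.18 for *Tbp* and −0.14 for *Eef1a1*. Against 1.5-fold, the interval was within the bound for 6 members with LPS, 9 at 32 µM and all 10 at 10 and 3.2 µM.

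**Figure D2:**
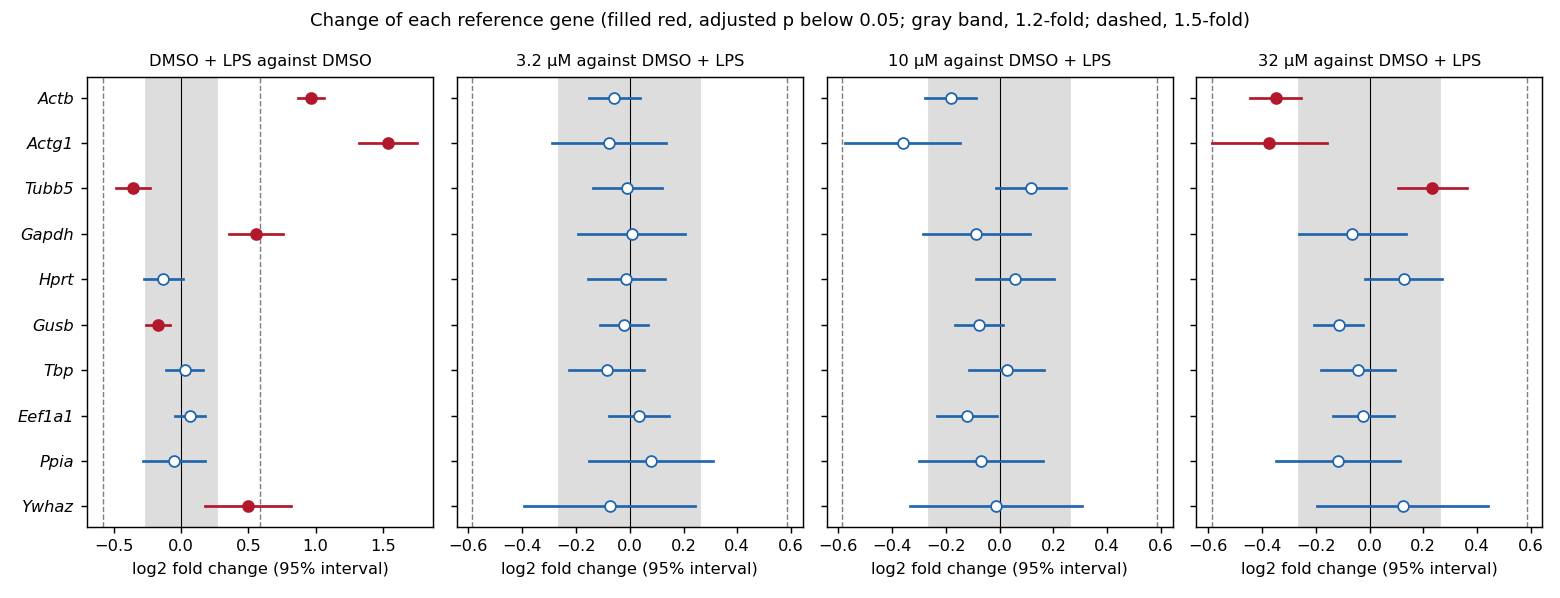
log2 fold change of each reference gene with its 95% interval (horizontal axis) in 4 comparisons, of DMSO + LPS with DMSO and of each dose of **1** with DMSO + LPS. Filled red points passed an adjusted p of 0.05 (6 with LPS, 3 at 32 µM, 0 at 10 and 3.2 µM), the gray band marks 1.2-fold and the dashed lines 1.5-fold.

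The LPS comparison depends on the scaling. TMM factors were 1.12 in both DMSO libraries and 0.959 to 0.988 in the others, and scaling by library size alone moved the median log2 change of all genes from 0.0026 to −0.20. The share of calls that were upward then went from 49.4% to 30.6%. *Tbp* was at −0.18 on the log2 scale under library size alone (edgeR's quasi-likelihood adjusted p = 0.0385) and *Eef1a1* at −0.14 (adjusted p = 0.0529), values close to that shifted median. *Hprt* (−0.34) and *Gusb* (−0.38) then fell, and *Ywhaz* (0.29, adjusted p = 0.105) was no longer called, while *Actb* (0.76), *Actg1* (1.33), *Gapdh* (0.35) and *Tubb5* (−0.57) kept their direction and call. With the conditions tested together, *Gapdh* (edgeR's quasi-likelihood adjusted p = 0.0575) and *Ywhaz* (0.185) were not called under library size alone. *Hprt* (0.00628), *Eef1a1* (0.0376) and *Tbp* (0.0401) were called in this joint test under that scaling. With ribosomal RNA left out of the library size, the joint test called *Hprt* (0.00951), *Eef1a1* (0.0158) and *Tbp* (0.0376) as well. For LPS under that last scaling, *Eef1a1* was at −0.14 and called (edgeR's quasi-likelihood adjusted p = 0.0261). Which scaling is right cannot be told apart from these libraries, and ratios between members, given below, do not depend on it.

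The actins were lower with **1**. At 32 µM *Actb* was at 0.785 of its level in DMSO + LPS (log2 −0.35, 95% interval −0.45 to −0.25, edgeR's quasi-likelihood adjusted p = 0.00122), and it was called under all 22 alternatives tried. *Actg1* was at 0.772 (log2 −0.37, 95% interval −0.59 to −0.16, edgeR's quasi-likelihood adjusted p = 0.0423). *Tubb5* rose, from 684.5 and 709 CPM to 849 and 790.0 CPM (log2 0.23, 95% interval 0.11 to 0.36, edgeR's quasi-likelihood adjusted p = 0.0366). In each of these 3 genes the libraries at 32 µM did not overlap those of DMSO + LPS, which held for 50% of all genes.

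These were 3 of 10 members, against 9.78% of all genes, and none reached 1.5-fold, against 4.18%. The *Actg1* and *Tubb5* calls are less secure than that of *Actb*. *Tubb5* was not called by edgeR's likelihood ratio test (adjusted p = 0.145). The quasi-likelihood test did not call it on the 4 libraries compared (adjusted p = 0.108) or without the count filter (0.0618). *Actg1* kept its call under these settings. Without replicate 2 at 32 µM, the library rich in ribosomal RNA, *Actg1* was at −0.42 on the log2 scale (edgeR's quasi-likelihood adjusted p = 0.115). Without replicate 1 at 32 µM it was at −0.33 (adjusted p = 0.186) and *Tubb5* at 0.18 (adjusted p = 0.166). Only *Actb* was called when any 1 of the DMSO, DMSO + LPS or 3.2 µM libraries was left out. The adjusted p was 0.0643 (*Actg1*) and 0.0725 (*Tubb5*) without replicate 2 of DMSO, and 0.0906 and 0.0832 without replicate 1 at 3.2 µM. Upward calls were 41.6% of all calls at 32 µM, and 51.9% when libraries were scaled by size without ribosomal RNA, where *Actg1* was at −0.34 (adjusted p = 0.0717).

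The remaining members were not called at 32 µM by edgeR's quasi-likelihood test with TMM scaling. *Gusb* was lowest there, at 558 and 543.8 CPM, below both DMSO + LPS libraries (log2 −0.12, 95% interval −0.20 to −0.026, edgeR's quasi-likelihood adjusted p = 0.119, DESeq2 adjusted p = 0.0401). *Hprt* was at 125.5 and 133.6 CPM, above both DMSO + LPS libraries (log2 0.13, 95% interval −0.016 to 0.27). *Gapdh* was at 2606 and 2240.0 CPM, on both sides of DMSO + LPS, and without replicate 2 its log2 difference turned from −0.063 to 0.041. *Ywhaz* was at 674 and 799 CPM, and its interval ran from −0.20 to 0.44. With the deviation of short transcripts added to the model, *Hprt* (0.11, edgeR's quasi-likelihood adjusted p = 0.0368) and *Gusb* (−0.11, adjusted p = 0.0139) were called.

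At 10 µM edgeR's quasi-likelihood test called 0 members, against 2.67% of all genes and 0.861% with a 1.5-fold change, while 3 members, and 1709 of all 14172 genes, had an unadjusted p below 0.05 and DESeq2 called 2. *Actb* was at −0.18 on the log2 scale (95% interval −0.28 to −0.086, adjusted p = 0.0742) and *Actg1* at −0.36 (95% interval −0.57 to −0.15, adjusted p = 0.113). Without replicate 1 at 10 µM, the library with the most epithelial marker counts, *Actb* was at −0.24 and called (adjusted p = 0.0278). Without replicate 2 at 10 µM, *Actg1* was at −0.55 and called (adjusted p = 0.00778), and without replicate 1 it was at −0.21 and not called. With the replicate number as a crossed block, a choice made after seeing the data, *Actb* (edgeR's quasi-likelihood adjusted p = 0.0211) and *Actg1* (0.0346) were called. *Ywhaz* was at 569 and 771 CPM, the widest replicate difference among the members (1.35-fold), and at 0.19 without replicate 1 in place of −0.013. *Eef1a1* was at its lowest at this dose, with a log2 difference of −0.12 (95% interval −0.23 to −0.0084, adjusted p = 0.369). With the deviation of short transcripts in the model, *Eef1a1* was at −0.13 and called by edgeR's quasi-likelihood test (adjusted p = 0.00153), as were *Actb* (5.88e-05), *Actg1* (0.00261) and *Tubb5* (0.0478).

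At 3.2 µM no member was called, and 0 had an unadjusted p below 0.05. The share of all genes called was 0, also with a 1.5-fold change, with 600 genes at an unadjusted p below 0.05. The log2 differences of the members lay between −0.086 (*Tbp*) and 0.079 (*Ppia*). All comparisons of **1** share the DMSO + LPS libraries, so their values are not independent of each other.

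The spread over all 10 libraries differed widely among the members. The SD of log2 CPM was 0.054 for *Tbp*, 0.069 for *Eef1a1*, 0.080 for *Hprt*, 0.11 for *Gusb*, 0.12 for *Ppia* and 0.15 for *Tubb5*. It was 0.24 for *Gapdh*, 0.25 for *Ywhaz*, 0.37 for *Actb* and 0.59 for *Actg1*. Among 4368 genes with a mean of at least 50 CPM and a count in every library, the median SD was 0.16, and 83.4% of them had a smaller SD than *Actb* and 92.4% a smaller SD than *Actg1*. For *Eef1a1* that share was 9.78% and for *Tbp*, itself below 50 CPM, 4.28%. These SDs depend on the scaling. Under library size alone the SD was 0.106 for *Tbp*, 0.144 for *Hprt*, 0.188 for *Gusb*, 0.229 for *Tubb5* and 0.289 for *Actb*, and *Eef1a1* in place of *Tbp* had the lowest.

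Within the 8 libraries with LPS the SD was smaller for every member but *Tbp* (0.061). *Gapdh* had an SD of 0.074 there, equal to that of *Hprt* (0.074), and *Gusb* had the lowest (0.051). *Actb* had 0.15, *Ywhaz* 0.16 and *Actg1* 0.20.

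**Figure D3:**
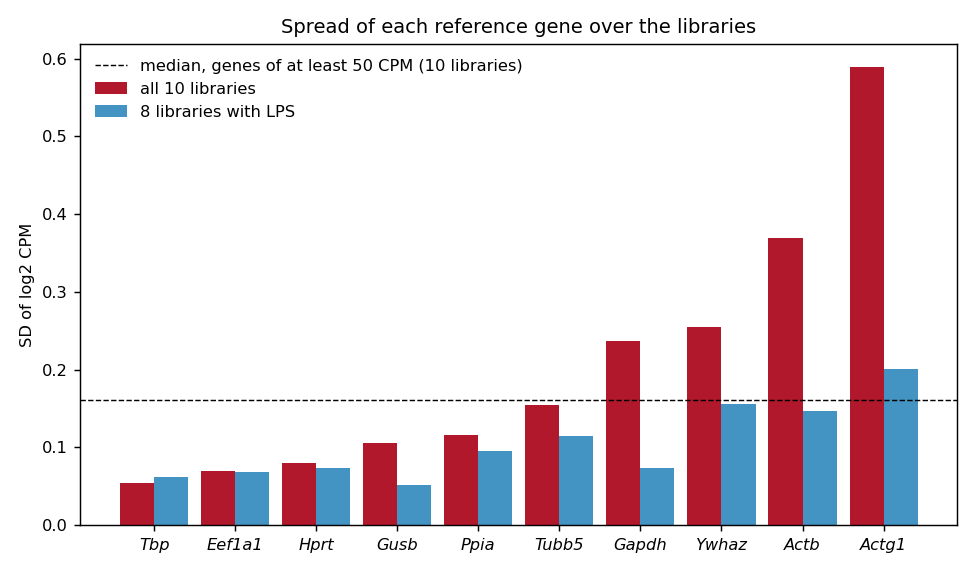
SD of log2 CPM (vertical axis) of each reference gene over all 10 libraries (red) and over the 8 libraries with LPS (blue), in rising order from *Tbp* (0.054) to *Actg1* (0.59). The dashed line is the median SD (0.16) of genes with at least 50 CPM.

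Ratios between members need no scaling to a library total. The mean SD of the log2 ratio of a member to the other 9, the pairwise measure used by geNorm, was lowest for *Eef1a1* (0.23), *Tbp* (0.23) and *Hprt* (0.25) and highest for *Actb* (0.36) and *Actg1* (0.54). The tightest pair was *Hprt* and *Tbp*, whose count ratio stayed between 4.34 and 5.19 in all libraries (SD 0.086). *Eef1a1* and *Ppia* followed, with a ratio of 7.02 to 8.87 (SD 0.087). The widest was *Actg1* to *Tubb5*, which ran from 0.909 to 3.44 (SD 0.73), 2 cytoskeletal genes that changed in opposite directions with LPS. *Actb* and *Gapdh*, both raised by LPS, kept a ratio of 1.90 to 2.69 (SD 0.17), a smaller spread than *Actb* had with *Tbp* (0.37) or *Eef1a1* (0.35).

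**Figure D4:**
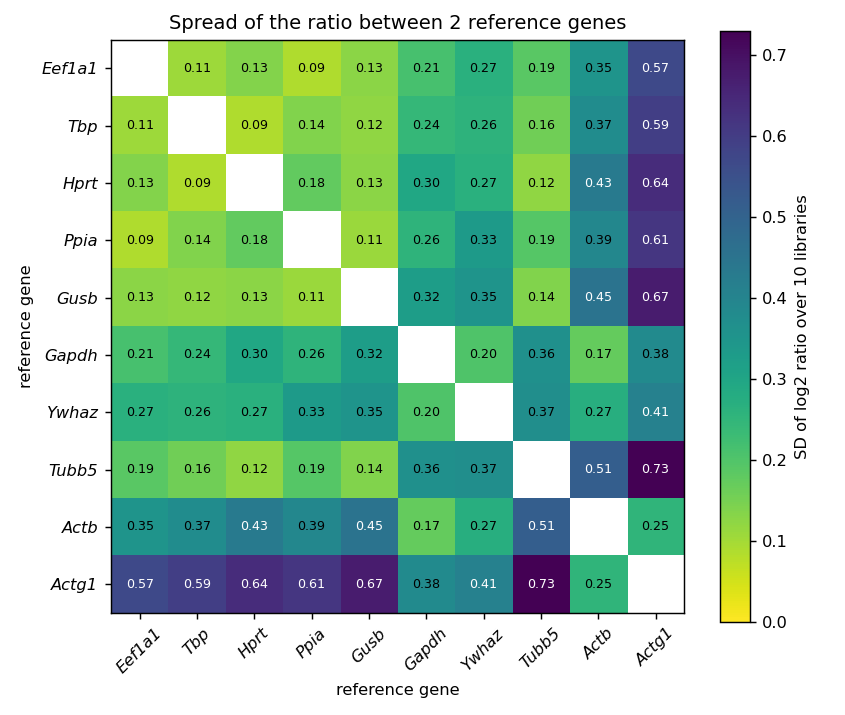
SD over the 10 libraries of the log2 ratio between each 2 reference genes (both axes, ordered by the mean of their SDs; color scale and printed values in log2 units). *Eef1a1*, *Tbp*, *Hprt*, *Ppia* and *Gusb* form a block between 0.09 and 0.18, and the *Actg1* row reaches 0.73.

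The choice of reference changed the size of the changes in the study's RT-qPCR targets, computed here from the counts. *Nqo1*, which encodes a quinone reductase and is a target of Nrf2, had 18 and 21 counts in DMSO and 152 and 121 in DMSO + LPS. With **1** at 32 µM it had 800 and 729 counts. Relative to *Actb* it was 7.91-fold higher at 32 µM than in DMSO + LPS, relative to *Tbp* 6.40-fold, relative to *Eef1a1* 6.31-fold and relative to *Hprt* 5.68-fold, with 6.21-fold under TMM scaling. Its rise with LPS was 3.97-fold relative to *Actb* and 2.68-fold relative to *Actg1*, against 7.64-fold relative to *Tbp* and 7.77-fold under TMM scaling.

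*Nos2*, which encodes the inducible nitric oxide synthase, had 2 and 0 counts in DMSO and 11999 and 9463 in DMSO + LPS, so no fold is given for LPS. At 32 µM it had 2190.0 and 2060.0 counts and was 4.55-fold lower under TMM scaling, 4.42-fold relative to *Tbp*, 4.97-fold relative to *Hprt* and 3.57-fold relative to *Actb*. At 10 µM it was 1.85-fold lower under TMM scaling, 1.63-fold relative to *Actb* and 1.43-fold relative to *Actg1*. Every reference kept the direction of both targets at each dose, and the actins gave the larger values for *Nqo1* and the smaller ones for *Nos2* at 32 µM. These are the same ratios as above in another form and carry no test.

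**Figure D5:**
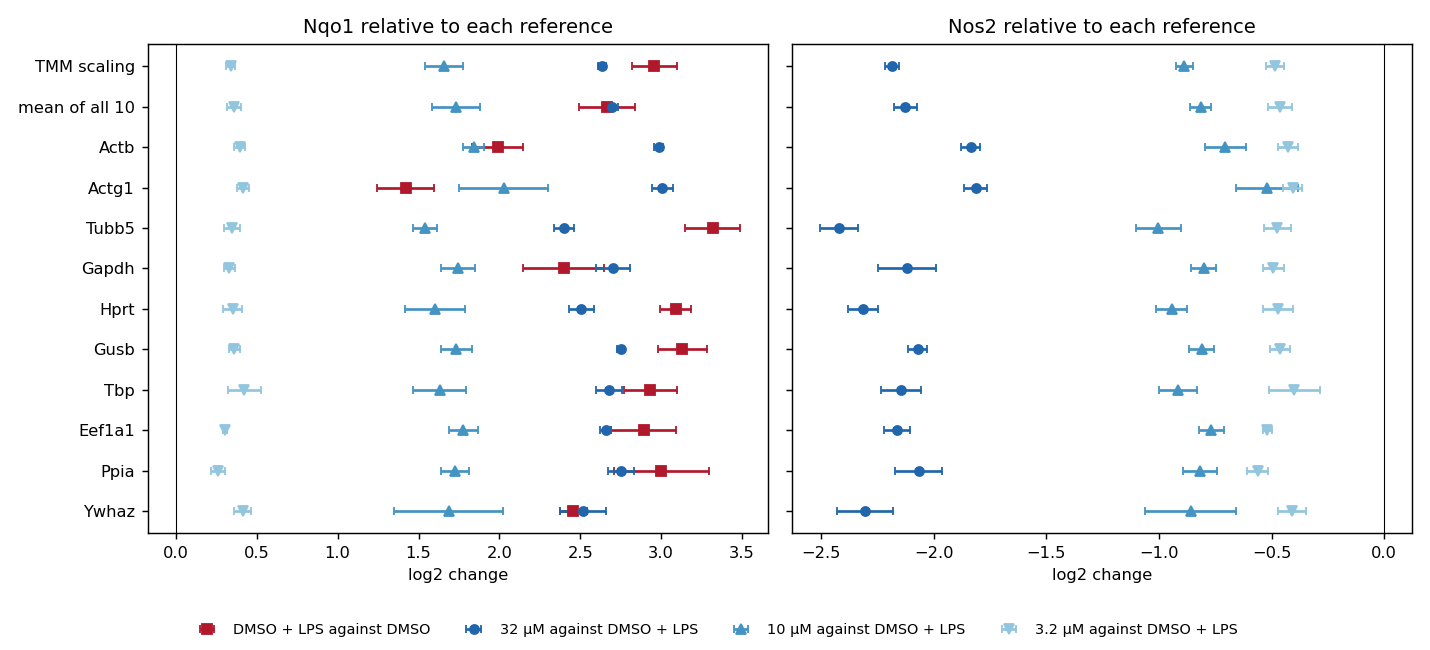
log2 change of *Nqo1* (left) and *Nos2* (right) relative to each reference gene, to the geometric mean of all 10 or under TMM scaling (vertical axis), with error bars from the SD of 2 libraries per condition (standard error of the difference). *Nqo1* at 32 µM lies between 5.28-fold (*Tubb5*) and 8.04-fold (*Actg1*).

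Scaling a whole library to 1 member shifts every gene alike. For LPS, 2820 genes were at least 1.5-fold higher and 2463 lower under TMM, and 2715 and 2566 when libraries were scaled to *Tbp*. Scaled to *Actb*, 1071 were higher and 10407 lower, and scaled to *Actg1*, 719 and 12375. At 32 µM the counts were 721 higher and 1030 lower under TMM, against 2278 and 573 relative to *Actb*.

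Copies of a member elsewhere in the genome can take some of its reads, and how such reads were counted is not given in the sources used here. *Gapdh* had 177 annotated genes with a transcript at least 90% identical over 300 nt, of which 168 were pseudogenes, and their counts came to between 14.7% and 26.0% of its own, most of them on the pseudogene *Gm13394* (18.1%). That share is taken over the counts of *Gapdh* itself, so it rises when those fall. It was 25.6% in replicate 2 of DMSO and 26.0% in replicate 2 at 32 µM, where *Gapdh* was lower than in the other replicate (0.854-fold and 0.860-fold). The similar genes had 20755 and 23029 counts in DMSO and 20080 and 26351 at 32 µM. At 10 µM the share was 14.7% and 21.1%, with *Gapdh* at 2407 and 2361 CPM. With the counts of the similar genes added, the log2 change of *Gapdh* was 0.51 in place of 0.56 with LPS. At 32 µM it was −0.031 in place of −0.067. Changes in this paragraph are differences of mean log2 CPM. *Ppia* had 33 such genes, with *Gm10123* the highest (8.70%), and their counts came to between 6.91% and 14.1% of its own. The shares were again highest in replicate 2 of DMSO and replicate 2 at 32 µM, where *Ppia* was at 0.806 and 0.893 of the other replicate. At 10 µM the share was higher in replicate 1 (11.3% against 9.82%), where *Ppia* was higher too (1215 against 1156 CPM). With the similar genes added, its log2 change was −0.087 in place of −0.043 (LPS), −0.076 in place of −0.12 (32 µM) and −0.026 in place of −0.069 (10 µM). *Eef1a1* had 15, with no more than 1.0%, and *Ywhaz* 1, with no more than 0.619%. *Actg1* had 12 (0.861% to 3.84%) and *Actb* 2 (1.03% to 3.83%). For *Actb* the share was 2.92% and 3.83% in DMSO and 1.03% and 1.04% in DMSO + LPS. With those counts added, its log2 change with LPS was 0.94 in place of 0.97. *Tubb5*, *Hprt*, *Gusb* and *Tbp* had no similar genes. *Pdcd2*, which lies inside the *Tbp* gene on the other strand, was listed at 0 in every library, so whether its reads were counted for *Tbp*, or dropped with part of the *Tbp* reads, cannot be told apart.

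The relatives of the members were counted in the same way, and each count with LPS is to be read beside the 50.9% of all genes called, 49.4% of those calls upward. Of 29 other genes of the actin cytoskeleton, 17 rose and 1 fell with LPS (median log2 change 0.34 against 0.0026 for all genes). *Acta2* (a smooth muscle actin, 2.09), *Zyx* (zyxin of focal adhesions, 1.42) and *Tmsb10* (a thymosin that binds actin monomers, 1.35) rose most. *Srf*, the gene of serum response factor, rose as well (0.37), and the 1 that fell was *Mrtfa*, a cofactor of that factor (−0.42). At 32 µM *Zyx* (−0.46), *Srf* (−0.29) and the talin *Tln1* (−0.36) fell, while *Myh9* (0.42) and *Tpm1* (0.32) rose, each with an adjusted p below 0.05 in edgeR's quasi-likelihood test. Over the 10 libraries, the genes whose log2 CPM was most like that of *Actb* were *Zyx* (Pearson's r = 0.998), *Usb1* (0.998) and *Dok2* (0.997). The libraries fall into conditions and share their scaling, so these values only describe a pattern, and *Actg1* itself had 0.966 and *Tubb5* −0.888.

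Of the 11 other tubulins, 8 rose and 1 fell with LPS, with a median log2 change of 0.75. *Tubb3* (1.77), *Tubb2a* (1.504) and *Tubb6* (1.11) rose most, *Tubb3* from a mean of 0.442 CPM, and *Tuba1b* (−0.75) fell, the direction also taken by *Tubb5*. At 32 µM *Tubb2a* (0.62) and *Tubb2b* (0.37) rose, as *Tubb5* did.

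Among 14 other glycolysis genes 6 rose and 3 fell with LPS. *Pgk1*, the phosphoglycerate kinase that is also used as a reference, rose by 1.02 on the log2 scale and the hexokinase *Hk2* by 0.73, and the aldolase *Aldoc* fell (−0.81). Lysosomal glycosidases other than *Gusb* mostly fell, 9 of 13 against 1 that rose (median −0.44), led by the genes of a mannosidase, *Man2b1* (−1.52), a fucosidase, *Fuca1* (−0.98), and the N-acetylglucosaminidase *Naglu* (−0.68). Of 13 genes of purine salvage and synthesis 8 fell and 1 rose, with *Prps2* (−1.63) and *Paics* (−0.93) of the synthesis pathway among those that fell and *Impdh1* (0.75) the one that rose.

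Of 12 tested subunits of TFIID, the complex that holds the TATA-binding protein, 4 fell and 1 rose with LPS (median −0.080), the last being *Taf7* (0.72). Of 7 translation elongation factor genes 2 rose and 1 fell, with *Eef2* at −0.11 and *Eif5a* at 0.34. Among 11 cyclophilins 3 rose and 3 fell, and of 6 other 14-3-3 genes *Ywhag* (0.38) and *Ywhae* (0.32) rose. No gene of these 4 lists, nor of the glycolysis and glycosidase lists, was called at 32 µM, where 9.78% of all genes were.

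Other genes in common use as references were also compared. Of 20 tested, 5 rose and 5 fell with LPS, against 50.9% of all genes called. *Pgk1*, *B2m* of MHC class I (0.78) and the proteasome subunit *Psmb4* (0.74) rose most. *Alas1*, of heme synthesis, was the 1 gene called with **1**, higher at 32 µM (0.55) and at 10 µM (0.30). *Atp5b*, a subunit of mitochondrial ATP synthase, was the 1 gene of the 20 whose interval was within 1.2-fold in all 4 comparisons. Its SD was 0.054 over the 10 libraries, and both were taken under TMM scaling. Its mean level was 1421 CPM.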

How the data were processed

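RNA from RAW264.7 cells was sequenced as poly(A)-selected, stranded libraries, 2 for each of 5 conditions. The values the authors deposited are raw read counts for each Ensembl gene in each library, with no normalization. The submitters' processing notes name Trimmomatic, FastQC, STAR and DESeq2 and the build mm10; the counting step, its use of strand and the annotation are not given in the sources used here. Symbols, positions and transcript lengths came from GENCODE M21 on GRCm38, and promoter windows from RefSeq on GRCm38.p6.

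Genes were kept by filterByExpr (minimum count 10), scaled by TMM and fitted in edgeR 4.0.16 (R 4.3.3), each condition having its own mean (5 residual degrees of freedom). DMSO + LPS was compared with DMSO and each dose with DMSO + LPS by the quasi-likelihood F test, and p was adjusted by Benjamini-Hochberg over all 14172 genes tested. Intervals are the log2 fold change ± t times its standard error. For 2 libraries a condition the smallest p of an exact permutation test is 0.333. In simulated counts with 200 changed genes for the 32 µM comparison, 165 were recovered with 10 false calls among 14172 genes. The changes were of 1.5-fold or more, up or down, in genes of at least 5 CPM in DMSO + LPS. Each gene was given the spread typical of its level. Changes as small as those of the members at 32 µM were not simulated, so their recovery is not known. Similar transcripts were found with blastn 2.17.0. The counting error of each member, set by its own smallest count (1165 for *Tbp*), was 2.93% or less, which covers the sampling of reads alone.

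The members, the lists and the named genes were chosen with earlier results of these data known. All members are named, with *Nqo1* and *Nos2*, the 3 genes most correlated with *Actb* and, of genes of at least 50 CPM, the 5 with the smallest SD. In each list the (at most) 3 genes with the largest change among those called with a 1.5-fold change are named. This leaves out the cell type markers, whose changes are not described, although some macrophage markers were called. The most counted similar gene is named for *Gapdh* and *Ppia*. Other list genes named were chosen after their values were seen. Alternatives were other scalings, no count filter, a minimum of 5 CPM, DESeq2 1.42.0, edgeR's likelihood ratio test, the 4 libraries compared, the replicate number as a block and leaving out each library. A short-transcript score and a crossed replicate block were chosen after seeing the data.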

Additional observations from a re-analysis of the deposited data

How the results depend on the processing

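With 2 libraries per condition the spread of each comparison rests on 5 residual degrees of freedom shared over conditions, and when 1 library is left out the lone library is assumed to vary like the others. The cause of the changes below was not tested.

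For LPS, 6 members were called, and 5 to 6 without any 1 library; 7 were called under library size alone, 8 under library size without ribosomal RNA, 7 with the short-transcript score and 2 with a 1.5-fold change as well. At 32 µM, 3 were called, 1 to 3 without any 1 library, 5 with the short-transcript score and 0 with a 1.5-fold change as well. At 10 µM, 0 were called, 0 to 1 without any 1 library, 1 without the count filter, 2 by DESeq2 and 4 with the short-transcript score. With the conditions tested together, 6 were called in the main test, 5 to 6 without any 1 library and 5 to 8 over all alternatives, and without replicate 1 of DMSO the 6 held *Eef1a1* and not *Ywhaz*. With the replicate number as a block, the counts of calls were 7 (LPS), 3 (32 µM), 0 (10 µM), 0 (3.2 µM) and 6 (any condition). The log2 difference of replicate 2 from replicate 1 was correlated between conditions over 9549 genes. Between DMSO + LPS and the conditions compared with it the values were −0.44 to −0.23. Over all 10 pairs of conditions they ran from −0.44 to 0.83. With the numbers of DMSO + LPS exchanged (crossed), the replicate block gave 6, 3, 2 (*Actb* and *Actg1*), 0 and 6 calls. The block with the numbers as labeled changed no call other than that of *Hprt* for LPS.

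The log2 changes that turned sign were not called in the main test. Under library size alone and library size without ribosomal RNA, LPS gave −0.18 and −0.18 for *Tbp*, −0.14 and −0.14 for *Eef1a1*, and 3.2 µM gave −0.00030 and −0.0033 for *Gapdh*. Library size without ribosomal RNA gave 0.012 for *Eef1a1* at 32 µM, the upper quartile −0.010 and no count filter −0.0066 for *Gapdh* at 3.2 µM. With the short-transcript score, values were −0.047 (*Gapdh*), 0.022 (*Hprt*) and 0.017 (*Ywhaz*) at 3.2 µM and 0.014 (*Ywhaz*) at 10 µM. Without any 1 library, values for LPS ran from −0.034 to 0.080 (*Tbp*), −0.016 to 0.13 (*Eef1a1*) and −0.22 to 0.11 (*Ppia*). At 32 µM they ran from −0.18 to 0.041 (*Gapdh*), −0.10 to 0.014 (*Tbp*), −0.064 to 0.017 (*Eef1a1*) and −0.0048 to 0.24 (*Ywhaz*). At 10 µM they ran from −0.030 to 0.12 (*Hprt*), −0.031 to 0.082 (*Tbp*) and −0.27 to 0.19 (*Ywhaz*), and at 3.2 µM from −0.034 to 0.017 (*Tubb5*), −0.0043 to 0.019 (*Gapdh*) and −0.042 to 0.017 (*Hprt*). Over all members, comparisons and alternatives, 805 log2 changes kept their direction and side of the threshold, 31 turned sign, and of those that kept their direction 26 lost a call and 18 gained one. Of the 31, those of *Tbp* for LPS were called under library size alone (edgeR's quasi-likelihood adjusted p = 0.0385) and without ribosomal RNA (0.0333), and that of *Eef1a1* without ribosomal RNA (0.0261).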

Other observations

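The genes of at least 50 CPM with the smallest SD of log2 CPM over the 10 libraries under TMM scaling were *Wdr12* (0.019, mean 90.5 CPM), *Cc2d1a* (0.020, 69.5 CPM), *Ddb1* (0.021, 663 CPM), *Slc38a10* (0.023, 198.5 CPM) and *Diexf* (0.023, 58.4 CPM). They were picked as the lowest of 4368 genes on these libraries, so their SDs are biased downward, and the highest library was 1.04 to 1.06 times the lowest. *Ddb1*, a subunit of a ubiquitin ligase that acts in DNA repair, and *Wdr12*, a factor of ribosome assembly, are not among the reference genes listed above. The lowest SD among the members was that of *Tbp* (0.054).

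The 10 members together took 2.06% to 2.44% of all counts in a library, and *Actb* alone 0.385% to 0.664%. *Actb* took 0.657% and 0.664% in DMSO + LPS, against 0.394% and 0.385% in DMSO.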
